A study of Mus musculus with 2 samples.

Results

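The TGF-beta, BMP and activin pathway genes were examined in glomeruli, the kidney's filtering tufts. The RNA came from male mice, 8 months of age, in which pristane had induced lupus nephritis. The members were the genes whose current symbol begins with the name of a TGF-beta, a TGF-beta receptor, a bone morphogenetic protein (BMP), a BMP or activin receptor, a growth differentiation factor (GDF), an inhibin beta chain, a Smad, a latent TGF-beta binding protein or a gremlin. They came to 55 genes with 75 probes, of 20658 named genes on the array, and 51 of the 55 were measured on both arrays. The rule used names alone and no measured value, but it was set with earlier results of these data known. Tgfb1i1 and the pseudogene Bmp4-ps also bear such names, but no probe here carries an accession of theirs.

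The study compared 2 groups of male mice, with 1 array each: a podocyte-specific knockout of Sirpa (Sirpa-/-) and the wild type (WT). Podocytes are the epithelial cells of the filter, and Sirpa encodes the inhibitory receptor SIRPα. Mice of both groups had received 0.5 ml of pristane, an oil that provokes lupus-like autoimmunity, into the peritoneum 4 months earlier. The labels and the extraction protocol name glomeruli, caught with magnetic beads from digested cortex, while the treatment protocol names podocytes. The sources used here give neither the promoter that drives the deletion, nor the strain, nor how many mice stand behind an array.

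TGF-beta, BMPs, GDFs and activins are secreted dimers that bring together a type II and a type I receptor kinase. The activated type I receptor phosphorylates receptor-regulated Smads, which join Smad4 and enter the nucleus to set transcription, while Smad6 and Smad7 restrain the pathway. TGF-beta is stored in matrix in a latent complex held by the latent TGF-beta binding proteins. In the glomerulus TGF-beta is known for driving matrix build-up and sclerosis, and BMP7 for protecting podocytes and tubules.

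Values below are processed Cy3 fluorescence signals scaled so that the 75th percentile of gene probes is 1000 on each array, which makes a gene's 2 signals comparable. They do not rank different genes, because probes differ in brightness. A difference is the log2 signal of the array labelled Sirpa-/- minus that of the WT array. With 1 array per group no test between the groups was possible, so genes were described by fixed sizes of 1.5-fold and 2-fold. The software's error estimate for a difference was 0.20 (log2) for most members, and for probes printed in several spots, the SD of a single spot's difference had a median of 0.11 over 254 brighter probes and 0.43 over 106 dim ones. Dim here means at or below the median signal of all gene probes.

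Sirpa had a signal of 15618 on the array labelled Sirpa-/- and 10042 on the WT array, which goes against the label. Whether its only probe lies in the deleted part was not tested, and glomerular cells other than podocytes keep the gene. Podocyte markers were present on both arrays and all 10 were measured, with a median difference of 0.12 and summed signals of 440739 on the array labelled Sirpa-/- and 408011 on the WT array. Endothelial markers had a median of -0.03 (9 of 9 measured) and mesangial and smooth muscle markers -0.11 (9 of 9). Markers of other cells moved: proximal tubule -0.33 (10 of 10 lower, summed signals 8613 and 11996 on the Sirpa-/- and WT arrays), loop to collecting duct 0.58 (8 of 10 higher, 4219 and 2325), B and plasma cells 1.26 (8 of 8 higher, 27378 and 21784) and erythroid cells 1.505 (4 of 5 higher, 47886 and 15635). Xbp1 alone made up 23636 and 20651 of the B and plasma cell sums on the Sirpa-/- and WT arrays. Its difference was 0.19, and that of Jchain 0.20. Of the 8 B and plasma cell markers, 5 were at least 1.5-fold higher, where 4.35% of all genes were. T cell markers lay at 0.43 (7 of 7 higher), fibroblast markers at 0.25 (4 of 6 higher) and macrophage markers at -0.06 (3 of 8 higher). Of the macrophage markers, 2 were at least 1.5-fold lower, Adgre1 (-0.91) and Cx3cr1 (-0.71), where 5.27% of all genes were. The highest macrophage marker was Mrc1 (0.36). The part of these cell types in the differences below was not tested. In whole glomeruli, fewer cells of a type and less RNA per cell cannot be told apart.

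As a whole the members differed little. Their median difference was 0.03, beside 0.00 over all 18239 named genes measured, and 27 lay above 0 and 24 below. Of the 51 members, 3 (Bmpr1b, Gdf2 and Acvr1b) were 1.5-fold or more higher on the array labelled Sirpa-/-, where 4.35% of all genes were. Another 4 (Gdf1, Ltbp4, Tgfb2 and Bmp15) were lower by as much, where 5.27% of all genes were. These shares are close to the background, and 44 of 51 members (86.3%) differed by less, with 9.62% of all genes past 1.5-fold in either direction. At 2-fold, 2 members were higher and 2 lower, with 1.56% and 1.67% of all genes. Of 38 members above the median signal 4 were past 1.5-fold, with 6.37% of such genes in all, and of 13 dim members 3 were, with 16.7%.

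**Figure D1:**
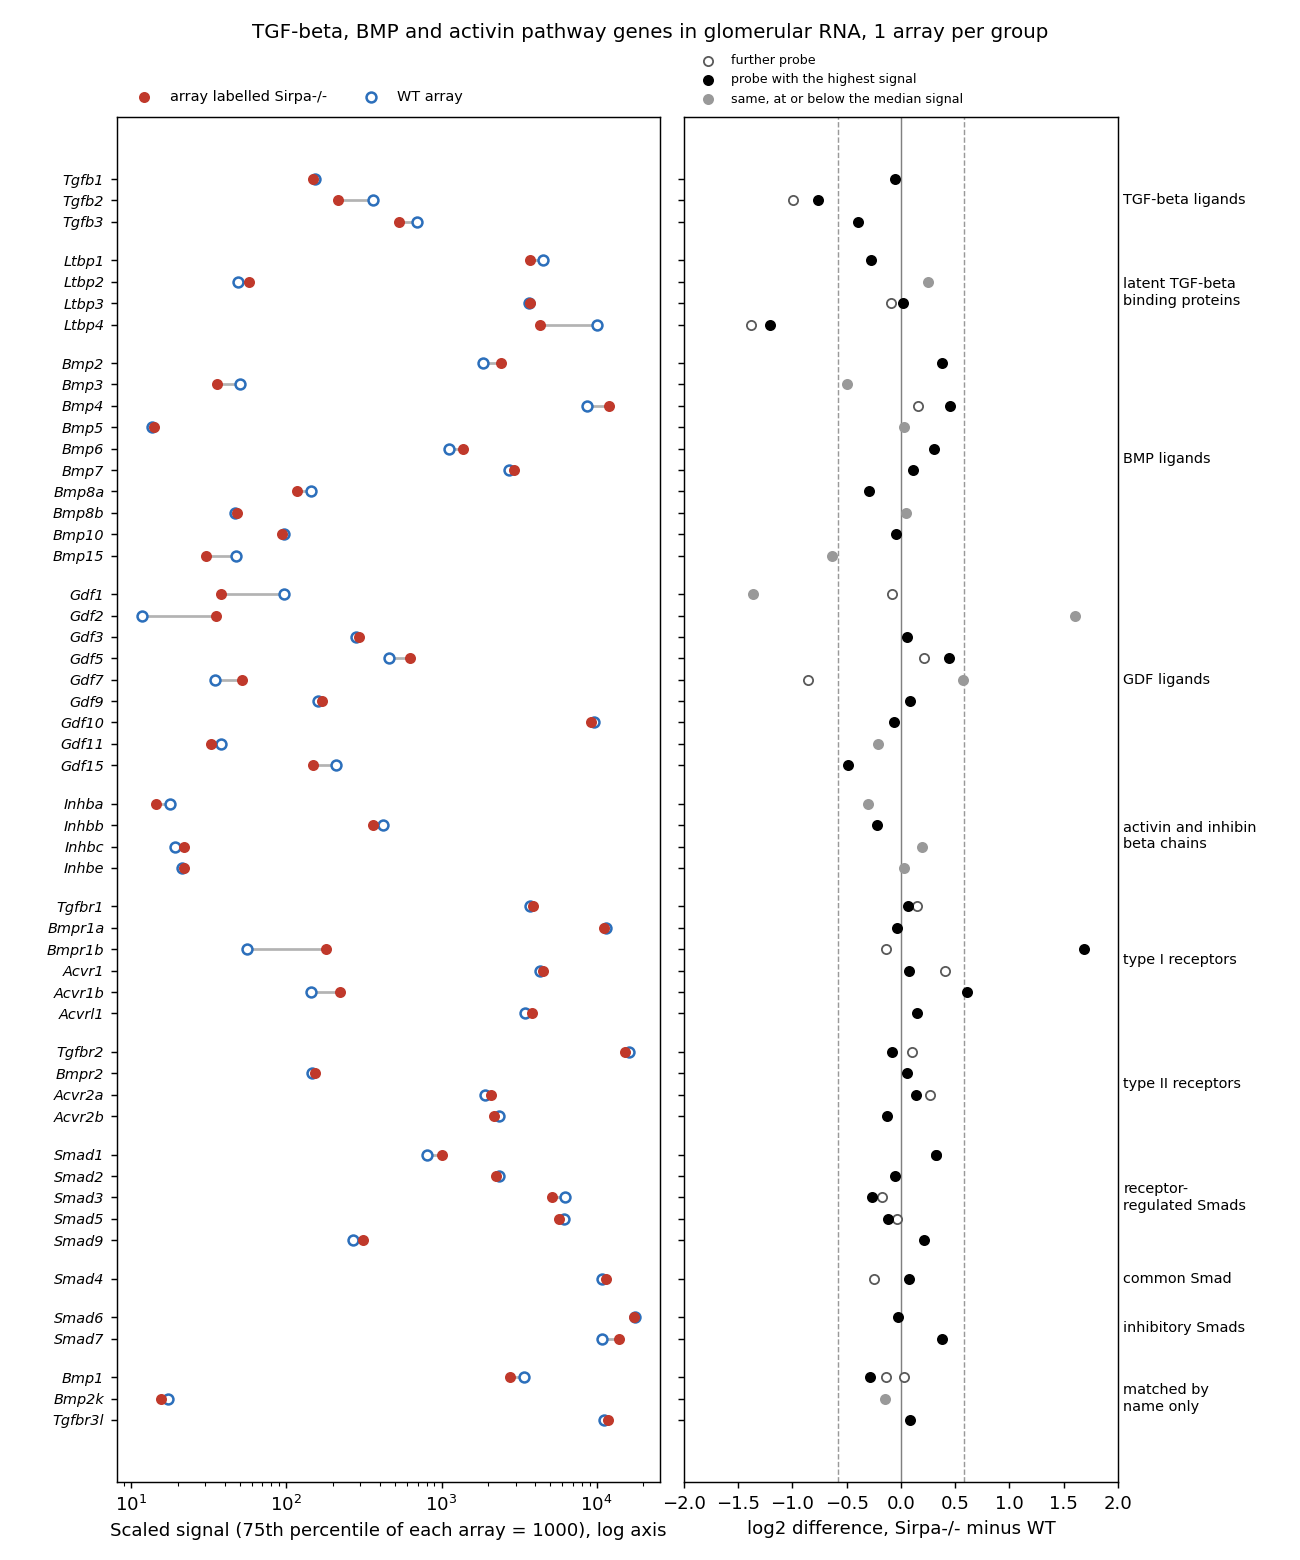
Scaled signals of the 51 measured members on the 2 arrays (left, log axis, 75th percentile = 1000) and their log2 differences, Sirpa-/- minus WT (right), grouped by role. Filled points at right show the probe with the highest signal (grey where dim), open points further probes of the gene, and dashed lines 1.5-fold. Ltbp4 and Tgfb2 lie beyond the left dashed line on both of their probes, whereas Bmpr1b lies beyond the right one on 1 probe only.

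The latent TGF-beta binding protein gene Ltbp4 was lower by more than 2-fold on both of its probes. LTBP4 binds latent TGF-beta in the matrix and takes part in elastic fibre assembly. Its first probe gave a signal of 4331 on the array labelled Sirpa-/- and 9982 on the WT array, 2.30-fold lower (log2 -1.20). Its second probe gave 610.9 on the array labelled Sirpa-/- and 1597 on the WT array, 2.61-fold lower (log2 -1.39). These signals were well clear of background, and the differences were several times the software's error of 0.20. Among 4561 named genes with 2 or more measured probes, 11 (0.241%) had every probe at least 2-fold lower, and Ltbp4 was 1 of them. The 6 measured genes nearest to Ltbp4 in the annotated order on chromosome 7, Itpkc, Coq8b, Numbl, Shkbp1, Sptbn4 and Blvrb, lay between -0.27 and 0.10, so the difference was not shared by its neighbours.

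The other binding proteins did not share this size of difference. Ltbp1, which anchors latent TGF-beta to the matrix, gave 3703 on the array labelled Sirpa-/- and 4498 on the WT array (log2 -0.28). Ltbp3, which also binds latent TGF-beta, gave 3734 and 3683 on the Sirpa-/- and WT arrays (0.02), and -0.09 on its second probe. Ltbp2, a family member that does not bind latent TGF-beta, was dim, with 57.7 and 48.5 on the Sirpa-/- and WT arrays (0.25).

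Of the 3 TGF-beta ligands, Tgfb2 was lowest on the array labelled Sirpa-/- relative to WT. Its first probe gave 213.5 on the array labelled Sirpa-/- and 362.4 on the WT array, 1.70-fold lower (log2 -0.76). Its second probe gave 138.9 on the array labelled Sirpa-/- and 277.4 on the WT array, 1.996-fold lower (-0.997). Both Tgfb2 probes therefore passed 1.5-fold in the same direction, as did every probe of 54 of the 4561 genes with several probes (1.18%). Of the 6 measured genes nearest to Tgfb2 on chromosome 1, the adjoining Lyplal1 (0.01) and Rrp15 (-0.01) were level, while the dim Slc30a10 gave 1.13 and the dim Gm2061 -0.95.

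Tgfb3 and Tgfb1 were each printed in 10 spots per array, so their technical error can be read directly. The 10 spots of Tgfb3 ran from 490.4 through a median of 527.0 to 565.0 on the array labelled Sirpa-/-, and from 630.1 through 705.7 to 730.9 on the WT array. The spots of the 2 arrays did not overlap, although the difference of -0.40 (1.32-fold lower) stayed short of 1.5-fold. Single spots of this probe had an SD of 0.10 for the difference. How often the spots of other repeated probes lay apart is not given here, so this is not shown to be particular to Tgfb3. The 10 spots of Tgfb1 ran from 140.5 through 147.8 to 161.3 on the array labelled Sirpa-/-, and from 144.9 through 153.3 to 173.1 on the WT array. They overlapped for most of their range, at a difference of -0.06. Repeated spots measure the printing and scanning of 1 RNA sample, not the spread between mice.

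**Figure D2:**
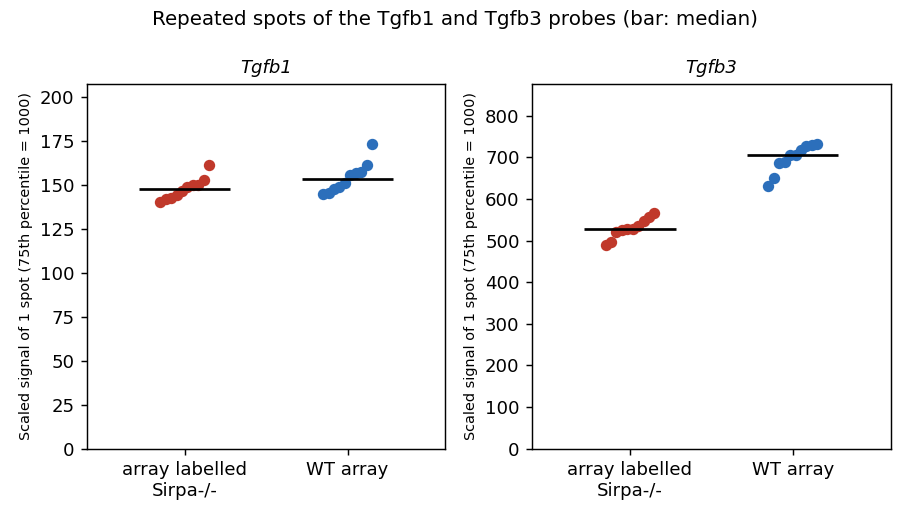
Scaled signal of each of the 10 spots of the Tgfb1 probe (left) and the Tgfb3 probe (right) on the array labelled Sirpa-/- and on the WT array, with axes from 0 and bars at the medians. The Tgfb3 medians are 527.0 (Sirpa-/-) and 705.7 (WT), and the Tgfb1 spots overlap.

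The promoter windows of the 2 genes lower on both probes are shown, with that of Tgfb1 as the ligand whose spots overlapped. Each window runs from 250 bases before to 50 after a RefSeq transcript start on the GRCm38.p6 assembly, written 5′ to 3′ on the gene's strand. Ltbp4 has 2 separate windows on the minus strand, at chr7:27337563-27337862 (upstream) and chr7:27333599-27333898 (downstream). Tgfb2 lies on the minus strand at chr1:186705940-186706239, and Tgfb1 on the plus strand at chr7:25686752-25687051. Capitals mark matches on either strand to 5 motifs. The TATA box was searched as TATAAA, where the basal transcription machinery can bind. The E-box was searched as CACGTG, a site of helix-loop-helix factors. The GC box was searched as GGGCGG, a site of factors of the Sp family. A GC-rich element known from BMP target genes was searched as GGCGCC, and the core of the Smad box was searched as CAGAC. Matches can overlap one another and run together in capitals.
Ltbp4 upstream: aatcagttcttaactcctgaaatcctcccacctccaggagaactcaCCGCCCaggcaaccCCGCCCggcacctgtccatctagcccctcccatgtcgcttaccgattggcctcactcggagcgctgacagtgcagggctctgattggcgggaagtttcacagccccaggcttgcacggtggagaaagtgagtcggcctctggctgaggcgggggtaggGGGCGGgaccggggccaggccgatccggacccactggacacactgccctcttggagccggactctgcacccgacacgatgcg
Ltbp4 downstream: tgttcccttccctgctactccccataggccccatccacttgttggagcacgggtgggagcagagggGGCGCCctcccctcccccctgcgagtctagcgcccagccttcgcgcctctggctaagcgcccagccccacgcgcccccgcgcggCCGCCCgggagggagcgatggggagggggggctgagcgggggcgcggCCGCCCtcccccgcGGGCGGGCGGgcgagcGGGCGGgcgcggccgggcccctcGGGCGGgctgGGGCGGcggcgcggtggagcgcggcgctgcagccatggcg
Tgfb2: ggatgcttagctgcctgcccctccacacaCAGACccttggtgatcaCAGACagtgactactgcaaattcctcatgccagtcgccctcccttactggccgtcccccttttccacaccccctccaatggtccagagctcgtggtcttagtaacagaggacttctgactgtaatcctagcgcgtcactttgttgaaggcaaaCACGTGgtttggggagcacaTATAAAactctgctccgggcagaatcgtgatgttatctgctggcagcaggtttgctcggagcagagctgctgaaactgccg
Tgfb1: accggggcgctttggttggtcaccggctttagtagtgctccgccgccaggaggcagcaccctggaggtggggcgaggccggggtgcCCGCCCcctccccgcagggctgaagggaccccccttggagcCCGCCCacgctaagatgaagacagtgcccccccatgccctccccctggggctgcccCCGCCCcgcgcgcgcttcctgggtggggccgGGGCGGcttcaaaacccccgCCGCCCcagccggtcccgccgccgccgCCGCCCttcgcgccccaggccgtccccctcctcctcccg

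The Tgfb2 window held 1 TATA box, 1 E-box and 2 Smad box cores and no GC box, at 54.3% GC. The 2 Ltbp4 windows held 3 GC boxes (upstream, 64.3% GC) and 7 GC boxes with 1 GC-rich BMP element (downstream, 80.3% GC), and neither held a Smad box core. The Tgfb1 window held 6 GC boxes and none of the other motifs, at 77.0% GC. Of 32851 RefSeq promoter windows, 13.6% held a TATA box, 7.15% an E-box, 35.7% a GC box, 11.9% the GC-rich element and 49.6% a Smad box core. The median window had 52.7% GC. The letters describe these windows and say nothing of which factor binds there. Ltbp4 and Tgfb2 thus had unlike windows, and promoter entries existed for 41 of the 55 members.

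The BMP ligands lay on both sides of 0, most of them close to it. Bmp4, a ligand of nephron and vessel development, gave 11928 on the array labelled Sirpa-/- and 8704 on the WT array (1.37-fold higher, log2 0.45). Its second probe was dim, at 25.7 on the array labelled Sirpa-/- and 23.0 on the WT array (0.16). Bmp2, a close relative of Bmp4, gave 2420 on the array labelled Sirpa-/- and 1861 on the WT array (0.38). Bmp6, best known as the inducer of hepcidin in liver, gave 1384 and 1121 on the Sirpa-/- and WT arrays (0.30), and Bmp7 2935 and 2719 (0.11). None of these 4 ligands reached 1.5-fold. Of the other ligands that were not dim, Bmp8a gave 116.8 on the array labelled Sirpa-/- and 143.1 on the WT array (-0.29) and Bmp10 93.8 and 96.7 (-0.04), so the BMP ligands above the median signal did not all lie on one side.

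The remaining BMP ligands were dim. Bmp15, an oocyte growth factor, was 1.56-fold lower at signals of 30.4 on the array labelled Sirpa-/- and 47.4 on the WT array. Bmp3, an antagonist of other BMPs, was also dim (35.7 on the array labelled Sirpa-/- and 50.4 on the WT array, log2 -0.50). Bmp5 gave 0.03 and Bmp8b 0.05.

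Among the GDFs, the 2 largest differences came from dim probes. Gdf2 encodes BMP9, a circulating ligand of the endothelial receptor ALK1, and its signal was 35.4 on the array labelled Sirpa-/- and 11.7 on the WT array, 3.04-fold higher (log2 1.602). Its neighbours on chromosome 14 included Gdf10, which was level at 9149 on the array labelled Sirpa-/- and 9549 on the WT array (-0.06). Gdf1, a ligand of left-right patterning, was 2.57-fold lower on 1 dim probe (37.7 on the array labelled Sirpa-/- and 96.9 on the WT array), but level on its other probe (43.8 and 46.5 on the Sirpa-/- and WT arrays, log2 -0.09). Gdf1 shares its annotated locus with Cers1, so which of the transcripts each probe reads is uncertain.

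Gdf5, a joint-forming ligand, gave 627.3 on the array labelled Sirpa-/- and 461.8 on the WT array (0.44), and 0.22 on its second probe. Gdf15, a stress-induced ligand, gave 149.0 on the array labelled Sirpa-/- and 209.3 on the WT array (-0.49). The 2 dim probes of Gdf7 went opposite ways, at 0.57 and -0.85, so no direction can be given. Gdf3 (0.06), Gdf9 (0.09) and Gdf11 (-0.21) differed little, and Gdf6 was not well above background on either array. A second Gdf3 probe was well above background only on the WT array, at least 1.54-fold lower on the array labelled Sirpa-/-. That bound leaves out the software's error of 0.44 (log2).

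Activin chains were level or dim. Inhbb, the beta B chain, gave 359.5 on the array labelled Sirpa-/- and 418.1 on the WT array (-0.22). Inhba, the beta A chain, gave only 14.4 on the array labelled Sirpa-/- and 17.8 on the WT array (-0.30). Inhbc (0.19) and Inhbe (0.03), which are best known from liver, were dim too.

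Among the type I receptors, which carry the signal to the Smads, Bmpr1b stood out on 1 of its 2 probes. That probe gave 180.7 on the array labelled Sirpa-/- and 56.0 on the WT array, 3.23-fold higher (log2 1.69). The other probe was dim, at 15.6 on the array labelled Sirpa-/- and 17.2 on the WT array (-0.14), so the probes of this BMP receptor (ALK6) disagree. The gene next to it on chromosome 3, Unc5c, gave 0.58, and the other 5 of its 6 nearest measured genes lay between -0.26 and 0.01. Acvr1b (ALK4, the activin type I receptor) gave 220.6 on the array labelled Sirpa-/- and 144.4 on the WT array, 1.53-fold higher (0.61), just past the threshold and on its only probe.

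The other receptors were level on the probes with the highest signal. Tgfbr1 (ALK5, the TGF-beta type I receptor) gave 3887 on the array labelled Sirpa-/- and 3707 on the WT array (0.07), and its partner Tgfbr2 gave 15240 and 16133 on the Sirpa-/- and WT arrays (-0.08); their second probes gave 0.15 and 0.11. Bmpr1a (ALK3, a BMP receptor) gave 11104 on the array labelled Sirpa-/- and 11413 on the WT array (-0.04), and Acvrl1 (ALK1, of endothelium) gave 3836 and 3460 (0.15). Acvr1 (ALK2, another BMP receptor) gave 0.07 on 1 probe and 0.41 on the other. The type II receptors Bmpr2 (0.06), Acvr2a (0.14, with 0.27 on its second probe) and Acvr2b (-0.13) also lay within 1.5-fold. On 1 probe Acvr1c (ALK7) was well above background only on the array labelled Sirpa-/-, at 7.38 there and 6.13 on the WT array. That difference (log2 0.27) was within the software's error of 0.50, and the second probe was well above background on neither array.

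All 8 Smads were measured and 0 reached 1.5-fold, between -0.27 and 0.37, where 9.62% of all genes did in either direction. Smad7, the inhibitory Smad induced by both branches, had the highest difference, from 13998 on the array labelled Sirpa-/- and 10800 on the WT array (0.37). Smad1, which carries BMP signals, gave 999.7 on the array labelled Sirpa-/- and 800.3 on the WT array (0.32), and 0.32 again on its second, dimmer probe. Smad9, of the same BMP branch, gave 312.1 on the array labelled Sirpa-/- and 269.8 on the WT array (0.21), while Smad5, also of that branch, gave -0.12 and -0.03 on its 2 probes.

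Smad3, which carries TGF-beta and activin signals, had the lowest difference, from 5170 on the array labelled Sirpa-/- and 6216 on the WT array (-0.27), with -0.18 on its second probe. Smad2, its partner in that branch, gave -0.05. Smad4, the common partner, gave 0.07 and -0.24 on its 2 probes, and Smad6, the inhibitor of BMP signals, -0.03. Grem1, a gremlin that traps BMPs, was not well above background on either array.

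The name rule also takes 3 genes on the array that were given none of the roles above. Bmp1, a procollagen protease, gave 2765 on the array labelled Sirpa-/- and 3377 on the WT array (-0.29), with -0.14 and 0.03 on further probes. Tgfbr3l gave 11900 on the array labelled Sirpa-/- and 11228 on the WT array (0.08), and Bmp2k, a kinase named for BMP2, was dim at 15.6 and 17.2 on the Sirpa-/- and WT arrays (-0.15).

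In all, 17 members had more than 1 measured probe. The probes of 11 of the 17 lay within 0.3 (log2) of each other, as did those of 2980 of all 4561 such genes. Those of 6 of the 17 differed in sign, some by small amounts around 0 (Tgfbr2, -0.08 and 0.11). The share of all such genes that differed in sign is not given here. Every probe was at least 1.5-fold lower for 2 of the 17, Ltbp4 and Tgfb2, and for 0 was every probe at least 1.5-fold higher, with 0.965% of all such genes.

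**Figure D3:**
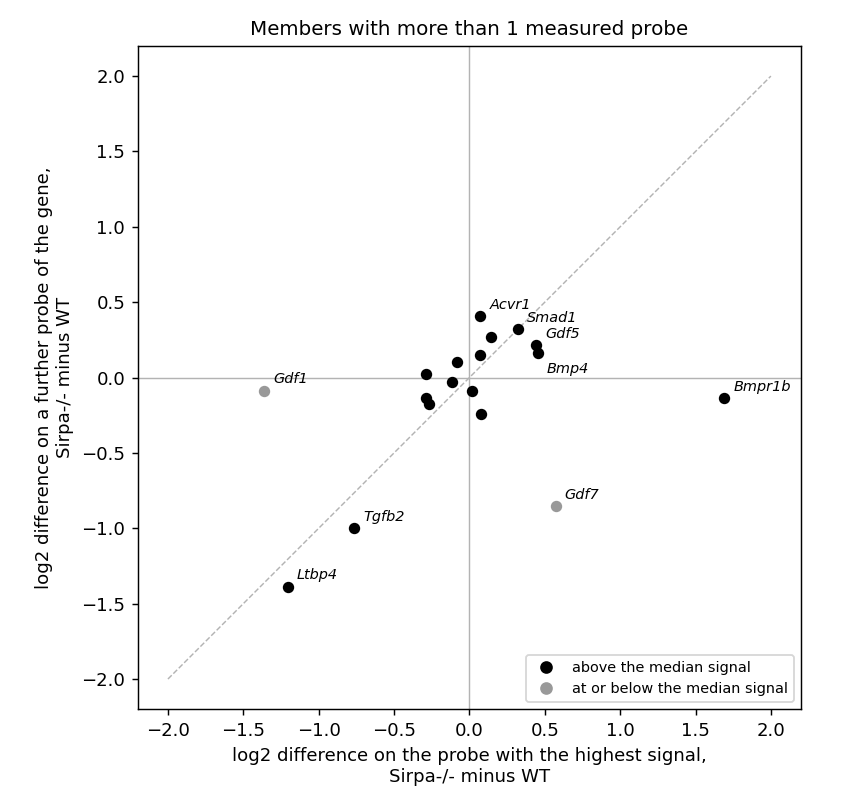
log2 difference (Sirpa-/- minus WT) on a further probe (vertical) against that on the probe with the highest signal (horizontal) for the 17 members with more than 1 measured probe, with the line of equality dashed and dim genes in grey. Ltbp4 (-1.20 and -1.39) and Tgfb2 (-0.76 and -0.997) lie near the line, and Bmpr1b, Gdf1 and Gdf7 far from it.

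Genes around the members were read from lists of antagonists, co-receptors, activators, intracellular regulators and targets. Of 23 listed extracellular antagonists, 19 were measured, with a median of -0.15; 2 were at least 1.5-fold higher and 3 lower, where 4.35% and 5.27% of all genes were. Sostdc1, which blocks BMP and WNT signals, gave 224.6 on the array labelled Sirpa-/- and 112.6 on the WT array (log2 0.996), and 1.03 on its second probe. The BMP antagonist Nbl1 gave 7433 on the array labelled Sirpa-/- and 4623 on the WT array (0.68). Decorin (Dcn), a proteoglycan that binds TGF-beta, gave 298.1 on the array labelled Sirpa-/- and 513.6 on the WT array (-0.78), and the activin trap follistatin (Fst) was lower at dim signals of 7.08 on the array labelled Sirpa-/- and 15.8 on the WT array (-1.16). Sost was lower too, at 1095 on the array labelled Sirpa-/- and 1722 on the WT array (-0.65). Loop to collecting duct markers had a median of 0.58, with 8 of 10 higher and 2 lower. Distal tubule cells also express Sostdc1, and their part in its difference was not tested.

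Most listed targets of the BMP branch lay above 0. Of 17 listed BMP target genes, all measured, 11 did and 3 were at least 1.5-fold higher, with a median of 0.30 beside 0.00 over all genes, and 1 was lower. Over all 18239 genes, 9179 lay above 0, 4.35% were at least 1.5-fold higher and 5.27% lower. Without the members Smad6 and Smad7 the median was also 0.30 (15 genes). The 3 were the Notch and BMP effector Hey1 (7981 on the array labelled Sirpa-/- and 4958 on the WT array, 0.69), the endothelial factor Gata2 (3723 and 2347, 0.67) and Tnfrsf11b, or osteoprotegerin (665.2 and 424.6, 0.65). The 1 was the pseudoreceptor Bambi, dim at 7.93 on the array labelled Sirpa-/- and 16.0 on the WT array (-1.02). Id1, Id2 and Id3, the classical BMP target genes, were singled out after their values were seen. Id1 gave 64864 on the array labelled Sirpa-/- and 51501 on the WT array (0.33), Id2 0.31 and Id3 0.33. Id4 of the same family gave -0.15 and Msx1, another BMP target, -0.44.

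The TGF-beta and activin target list had a median of -0.04 over 24 of 25 genes. Of these, 2 were at least 1.5-fold higher and 0 lower, where 4.35% and 5.27% of all genes were. Collagen Col1a1 gave 526.4 on the array labelled Sirpa-/- and 328.7 on the WT array (0.68), and lysyl oxidase (Lox) 72.0 and 46.1 at dim signals (0.64). The cell cycle inhibitor Cdkn2b (-0.58) and periostin (Postn, -0.53) were the lowest, and both stayed within 1.5-fold. Ccn2, a well known profibrotic target, gave -0.07 and was named after its value was seen. Fibroblast markers, which include Col1a1 and Dcn, had a median of 0.25, and the part of these cells in the differences was not tested.

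**Figure D4:**
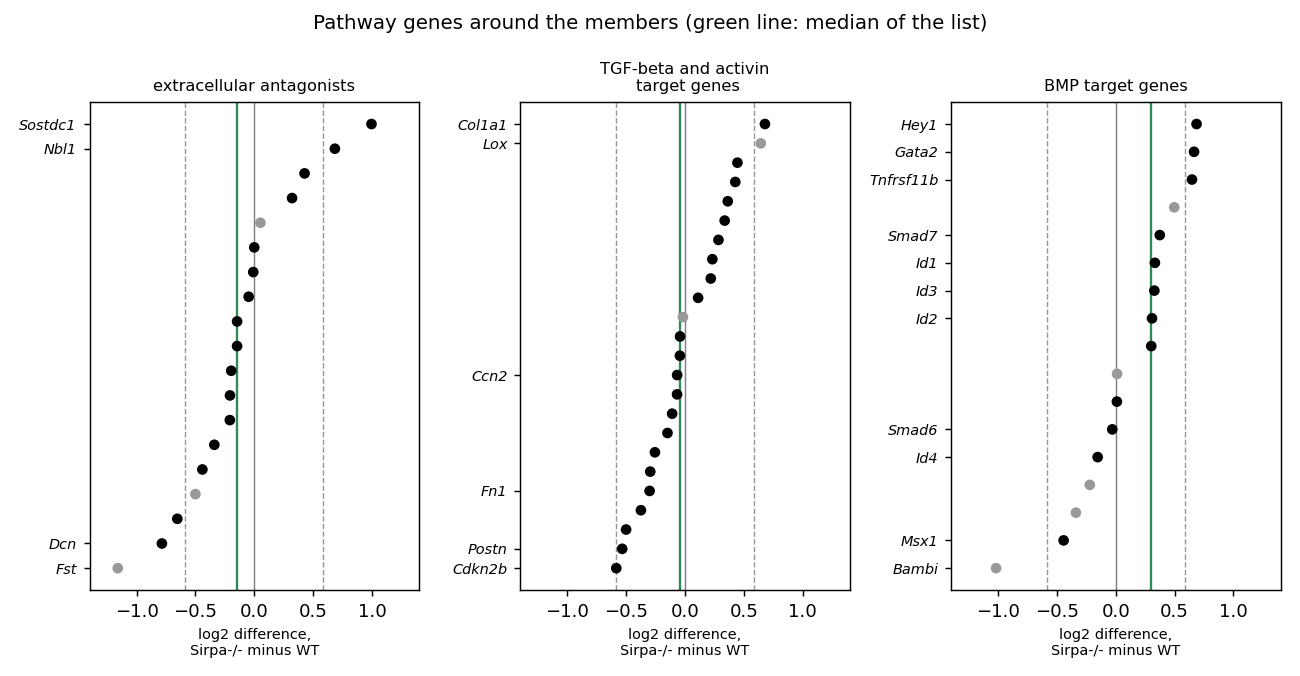
log2 differences (Sirpa-/- minus WT) of the measured extracellular antagonists, TGF-beta and activin target genes and BMP target genes, 1 point per gene, ordered by difference, named where the text gives its value (except Sost) and grey where dim, with the list median as a green line and 1.5-fold as dashed lines. The medians are -0.15, -0.04 and 0.30.

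The medians of the remaining lists stayed near 0, and 9.62% of all genes were past 1.5-fold in either direction. Intracellular regulators had a median of 0.09 over 26 genes, and only the Smad partner Foxh1 passed 1.5-fold (lower, -0.67, dim), with Usp9x (0.48), Wwp1 (0.35) and Strap (0.34) next. Activators and matrix carriers of latent TGF-beta had a median of -0.03 over 14 of 15 genes and 0 past 1.5-fold. Of these, Plg gave 0.57 (dim), Itgb8 -0.35 (dim), fibronectin (Fn1) -0.30 and Emilin1 -0.27. Co-receptors had a median of -0.10 over 8 of 9 genes, of which Bambi alone passed 1.5-fold; the latent TGF-beta anchor Lrrc32 gave -0.40, and dim Hjv and Amhr2 gave -0.52 and 0.38. More distant ligands of the superfamily had a median of -0.07 over 6 of 8 genes, with Gdnf at -0.92 and Pspn at 0.76, both dim, Artn at 0.28 and Nodal at -0.24.

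Across 8 other ways of processing, Ltbp4 lay between -1.30 and -1.16, Tgfb2 between -0.88 and -0.62 and Tgfb3 between -0.42 and -0.32. Ltbp4 and Tgfb2 were past 1.5-fold in all 8. Another background correction (normexp) took Bmp15 to -0.19 and Acvr1b to 0.49, both inside 1.5-fold, and Gdf2 to 0.60 and Gdf1 to -0.59, each still past it. Averaging a gene's probes took Bmpr1b to 0.78 and Gdf1 to -0.72.

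**Figure D5:**
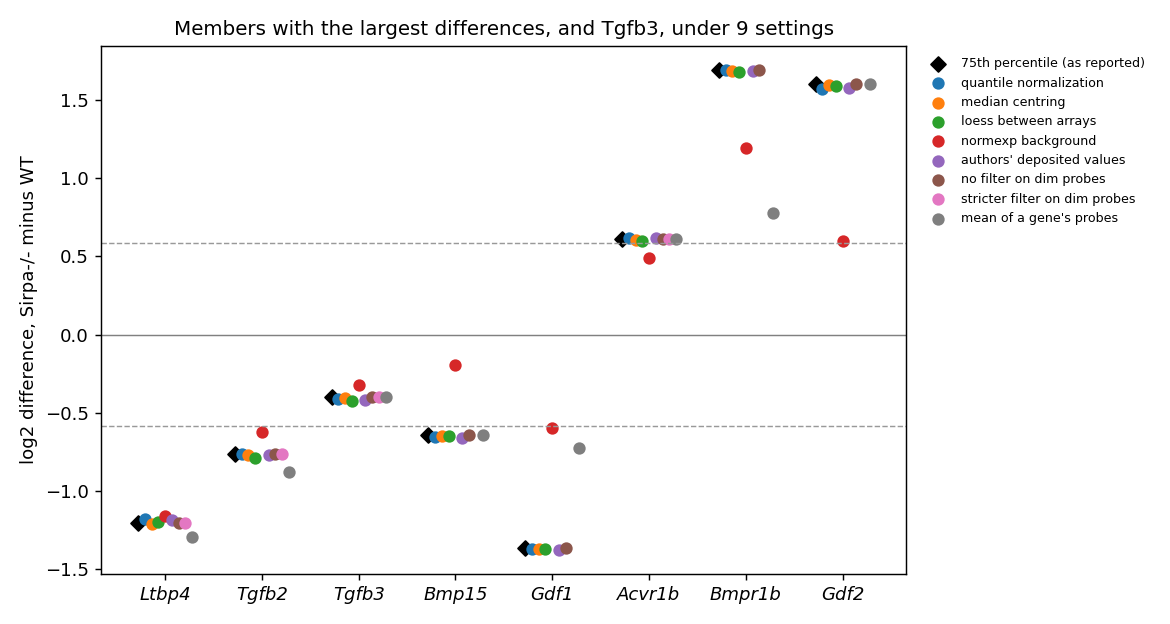
log2 differences (Sirpa-/- minus WT) of Ltbp4, Tgfb2, Tgfb3 and the other members past 1.5-fold under the reported setting (black diamonds) and 8 alternatives (circles), with dashed lines at 1.5-fold. A missing circle means that the gene's probes did not pass the stricter filter. Ltbp4 stays between -1.30 and -1.16, and the normexp values of Gdf1, Gdf2 and Bmp15 lie nearer to 0 than their others.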

How the data were processed

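Per the file headers, the authors extracted the scanner intensities with Agilent Feature Extraction 11.0.1.1, while the submitters' processing notes name 9.1. The processed intensity was background-subtracted and detrended by that software. Other values in those deposited files include spot and background signals, error estimates and quality flags. A table of log2 values that the authors deposited is uncentred and has equal quantiles on both arrays (column medians 6.50), by steps not given in the sources used here; each column matched its own array best (r = 0.9938 for Sirpa-/- and 0.9945 for WT).

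Here the processed intensity was put on a log2 scale, spots not marked as outliers were averaged per probe, and each array's 75th percentile (39423 gene probes) was subtracted. A probe was measured when over 50% of them passed the well-above-background flag on each array (86.7% of probes were on the array labelled Sirpa-/- and 85.3% on the WT array); 0 spots were saturated. A probe above background on 1 array has a bound, taken against its own dim signal or, where higher, the lowest signal among probes well above background. The bound leaves out the software's error. Accessions without version were matched to RefSeq genes of GRCm38.p6, which named 27231 probes; the array's own annotation is older, so only names and gene order were used. A gene was represented by its measured probe with the highest mean signal, and all probes were reported. The members and lists were chosen with earlier results of these data known, and some genes of the rule and lists are not reported here. Named were all members, up to 4 genes per list with the largest differences, and Sirpa. Sost, single cell type markers, annotated neighbours and promoter letters were added after the values were seen. With 1 array per group, whose number limits precision, no test was made. The scaling was tested on simulated shifts. Python 3.11.15, limma 3.58.1 and R 4.3.3 were used.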

Additional observations from a re-analysis of the deposited data

How the results depend on the processing

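The settings tried were quantile normalization, median centring, loess, normexp with an offset of 50, the authors' deposited log2 values, either no filter on dim probes or a stricter one, and the mean of a gene's probes. Of 394 differences of single members under these settings, 375 moved by less than the technical SD, 19 moved by more and 0 of those past 1.5-fold changed sign. The count of members at least 2-fold higher, 2 as reported, was 1 with normexp and 1 with probe means and 0 with the stricter filter; the count at least 2-fold lower, also 2, was 1 under each of these 3. The stricter filter, which left 37 members, gave 1 member at least 1.5-fold higher and 2 lower, beside 3 and 4; it asks for a signal above the median on each array, and so it dropped Bmpr1b, low on the WT array only, along with the dim Gdf1, Gdf2 and Bmp15. The members' median stayed between -0.03 and 0.05. With normexp the co-receptor median was 0.0395 in place of -0.10, and the cause was not tested. With no filter the median of the more distant ligands was 0.13 in place of -0.07. That setting also takes in the listed ligands that were not measured on both arrays. The other list medians, BMP targets among them (0.26 to 0.32), moved by less than the technical SD. No paired analysis was possible because each group has 1 array. Dim probes limit the values of Gdf1, Gdf2, Gdf7 and Bmp15.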
